A study of Mus musculus with 19 samples.

Results

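Triglyceride and phospholipid synthesis share a backbone of glycerol phosphate, and the 33 genes described here encode the enzymes that build it and take it apart. They were chosen by gene symbol from the array annotation, as genes of glycerolipid synthesis and lipolysis, and each of the 33 was present among the 30214 gene names on the array. They were read by 46 of 39429 probes, and 43 of these, from 32 genes, passed the filter on dim probes that left 32021 probes of 24737 genes. Hepatic lipase (Lipc) was the gene that did not pass, as its probe was well above background on 0 of 19 arrays, and a second probe each of Dgkb and Dgki was also dim on all 19.

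The samples were quadriceps muscle, composed mainly of fast glycolytic fibers, of 180-day-old male C57Bl6J mice. AR113Q mice are a knock-in model of spinal and bulbar muscular atrophy (SBMA), in which the androgen receptor carries an expanded polyglutamine tract and is made wherever the receptor is normally expressed, so the change is not restricted to muscle. Wild-type controls (CTR) and AR113Q mice received from 40 days of age a purified normal chow (NCD) or a diet rich in fat (HFD). On NCD there were 5 samples of each genotype, and on HFD 4 of CTR (CTR-HFD) and 5 of AR113Q mice, each on 1 one-colour array. The labels number the samples of a group and do not name the animals, so the p-values below measure the spread between these samples.

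In the synthesis pathway glycerol 3-phosphate is acylated to lysophosphatidic acid and then to phosphatidic acid, which phosphatases of the lipin family dephosphorylate to diacylglycerol, and diacylglycerol is acylated to triglyceride. Diacylglycerol kinases run one step backwards, from diacylglycerol to phosphatidic acid, and both lipids also act as signals in muscle. Lipases release the fatty acids again, inside the fiber from lipid droplets or at the capillary wall from circulating lipoproteins.

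Values are given as log2 signal, the log2 of an array's processed intensity minus the 75th percentile of that array, and they compare samples for 1 probe and not probes with each other. A gene was called when at least 1 of its probes reached an adjusted p under 0.05 in a limma fit of the 4 groups, adjusted over all 32021 probes. Between 67.07% and 80.14% of probes were well above background on each array. The quadriceps markers Acta1, Ckm, Myh4, Myh1, Tnnt3 and Des were detected in every group. Of these 6, Acta1, Ckm, Myh4 and Tnnt3 were lower in AR113Q than in CTR mice on both diets, Ckm, the muscle creatine kinase, with log2 fold changes of -0.70 on NCD (SE 0.08, adjusted p = 9.04e-06) and -0.72 on HFD (SE 0.08, adjusted p = 1.37e-05), and Des was higher on HFD (0.32, SE 0.10, adjusted p = 0.034). In whole muscle, fewer cells of a type and less RNA per cell cannot be told apart.

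For the genes on which the results turn most, the stretch just upstream of the annotated transcription start is printed to show what regulatory letters it holds, since Lpin1 and Lpin3 are related genes that differed between the genotypes in opposite directions and Pnpla3 was the lipase called. The sequences are the 250 bases before the start in GRCm38.p6 from RefSeq, 5′ to 3′ on the strand of the gene, in lower case, with capitals for AGAACA, the half-site bound by the androgen receptor and other steroid receptors (on either strand, so also TGTTCT), and for CAGCTG, an E-box of the kind bound by myogenic factors. Lpin1 lies on the minus strand at chr12:16610967-16611216, Lpin3 has annotated starts at chr2:160880420-160880669 and chr2:160887918-160888167 on the plus strand, and Pnpla3 lies at chr15:84167566-84167815 on the plus strand.
Lpin1: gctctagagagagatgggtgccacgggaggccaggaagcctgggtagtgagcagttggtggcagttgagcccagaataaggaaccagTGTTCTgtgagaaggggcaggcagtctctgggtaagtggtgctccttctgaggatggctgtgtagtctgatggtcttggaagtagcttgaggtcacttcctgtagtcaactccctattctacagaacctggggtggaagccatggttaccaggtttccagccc
Lpin3, first start: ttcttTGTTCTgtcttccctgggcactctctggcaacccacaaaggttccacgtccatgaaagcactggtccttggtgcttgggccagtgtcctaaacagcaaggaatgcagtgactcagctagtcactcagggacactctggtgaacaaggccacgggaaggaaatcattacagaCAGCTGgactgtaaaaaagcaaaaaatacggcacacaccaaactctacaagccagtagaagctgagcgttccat
Lpin3, second start: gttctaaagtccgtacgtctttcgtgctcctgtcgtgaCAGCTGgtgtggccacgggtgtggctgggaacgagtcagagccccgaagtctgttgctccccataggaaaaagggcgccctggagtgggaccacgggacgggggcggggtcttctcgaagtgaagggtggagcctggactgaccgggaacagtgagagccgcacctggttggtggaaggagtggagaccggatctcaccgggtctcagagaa
Pnpla3: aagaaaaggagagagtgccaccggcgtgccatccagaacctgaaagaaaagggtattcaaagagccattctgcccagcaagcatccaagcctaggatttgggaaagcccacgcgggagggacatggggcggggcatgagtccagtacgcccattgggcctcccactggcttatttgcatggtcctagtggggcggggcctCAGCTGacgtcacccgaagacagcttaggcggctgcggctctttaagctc

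The Lpin1 stretch held 1 half-site, which began 163 bases before the start. The first Lpin3 stretch held a half-site at 245 bases and an E-box at 74 bases before the start, the second an E-box at 212 bases, and the Pnpla3 stretch an E-box at 50 bases. Promoters could be matched for 27 of 33 members, with 40 starts. Of the 10 called members with a promoter, Dgka, Dgkq, Gyk, Lpin1 and Lpin3 held the half-site in 5 of 16 starts (31.2%), and the uncalled members held it in 6 of 24 (25%), beside 16.1% of all 32851 promoters. CAGCTG was in 3 of 16 starts of called members (18.8%), in 3 of 24 of the others (12.5%) and in 13% of all promoters, and the full palindromic androgen response element, both half-sites with a spacer of 3 bases, was in 0 of 40 member starts and in 0.00913% of all. A match of letters is a description of the sequence, and no match says only that these letters were not in this window.

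On NCD, 9 of the 32 tested members were higher in AR113Q than in CTR quadriceps (Gyk, Agpat2, Agpat3, Lpin3, Dgat2, Dgka, Dgkq, Dgkz and Pnpla3) and 2 were lower (Agpat1 and Lpin1). Over all 24737 genes tested, 9.35% were called higher and 10% lower. By probe, 14 of 43 (32.6%) were called against 17.6% of all probes, and the median log2 fold change of the 43 was 0.11 against -0.05 for all probes. The groups did not overlap for 11 probes that were higher and 4 that were lower in AR113Q-NCD, against 7.31% and 8.29% of all probes. By role, 5 of 18 synthesis genes were higher and 2 lower, 3 of 9 diacylglycerol kinases and 1 of 5 tested lipases were higher, and the remaining 21 members did not pass the test.

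On HFD, 5 members were higher in AR113Q than in CTR quadriceps (Agpat3, Lpin3, Dgka, Dgkz and Pnpla3, against 8.97% of all genes) and 2 were lower (Agpat1 and Lpin1, against 10.9%). By probe, 8 of 43 (18.6%) were called, a share close to the 17.9% of all probes, and the median of the members was 0.00 against -0.07. The comparisons on NCD and HFD had 0 arrays in common, but they are not fully independent. They were fitted with 1 shared estimate of the spread, and slides held arrays of both diets. All 7 genes called on HFD were among the 11 called on NCD, in the same direction. Of the 43 probes, 31 had the same sign on both diets, and the matching share over all probes is not given here. The 4 genes called on NCD and not on HFD were Gyk, Agpat2, Dgat2 and Dgkq, and the test of the difference between the diets, the genotype by diet interaction, called 0 of them. With normexp background correction in place of the processed signal, the calls left on NCD were Agpat2, Agpat3, Dgkz and Lpin3 higher and Lpin1 lower. On HFD they were Lpin3 higher and Lpin1 lower. That correction also moved the median of all probes on NCD to -0.55. Fitting the HFD groups alone left Lpin3 and Pnpla3 as the members higher on HFD.

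**Figure D1:**
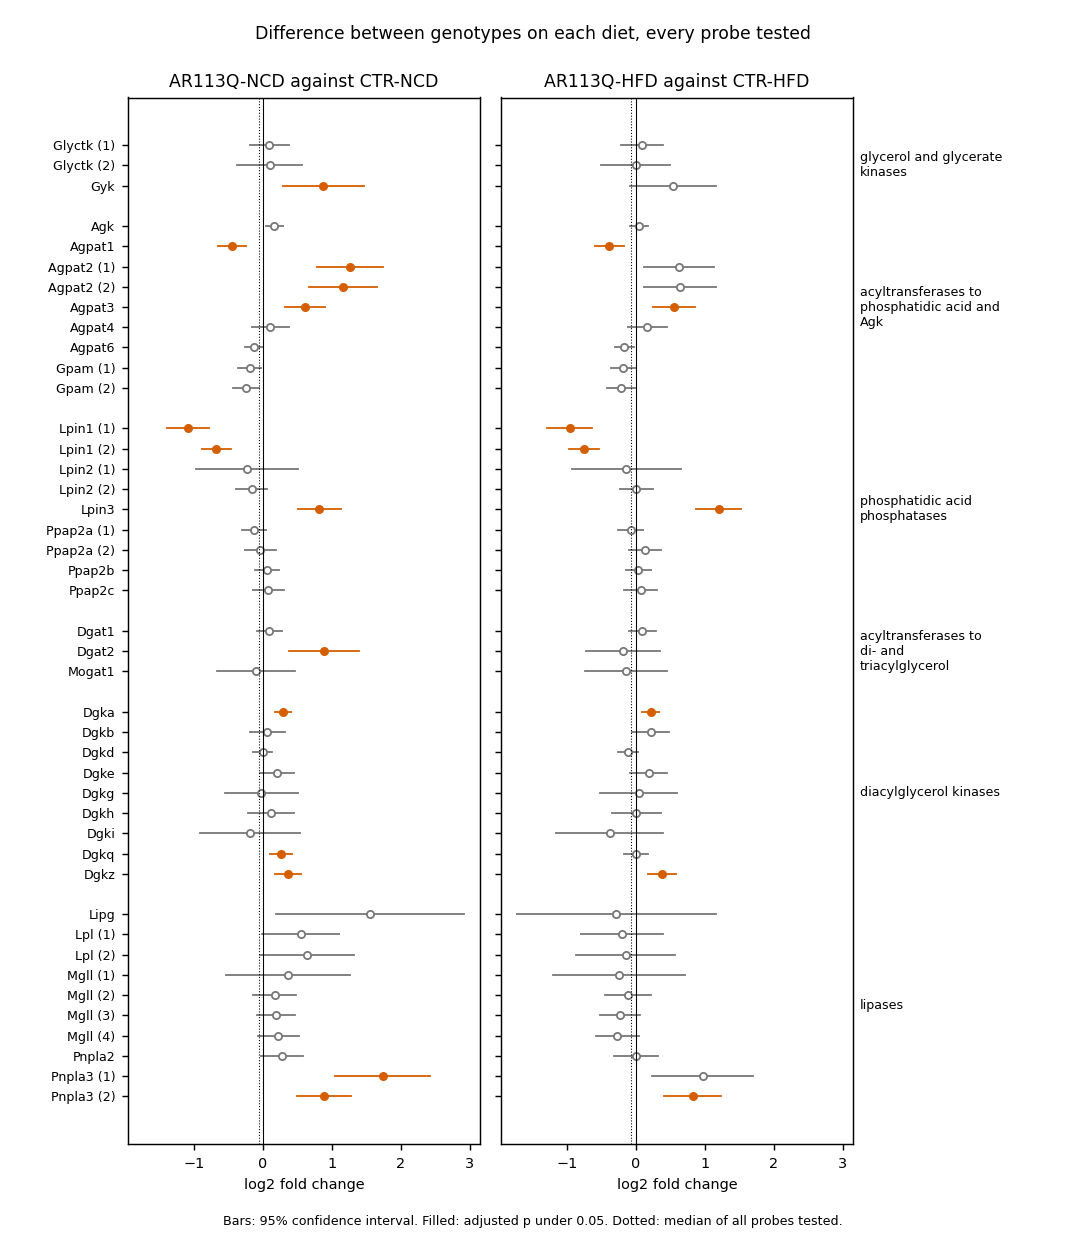
The log2 fold change of AR113Q against CTR is plotted for each of the 43 tested probes, ordered by role, on NCD (left) and HFD (right), where numbers in brackets tell the probes of a gene apart, bars are 95% confidence intervals, filled points passed an adjusted p of 0.05 and the dotted line is the median of all probes. Lpin1 and Lpin3 lie on opposite sides of 0 in both panels, while Agpat2 and Dgat2 are filled in the left panel alone.

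Lpin1 had the lowest adjusted p among the members on NCD, and Lpin3 followed by Lpin1 on HFD. Lpin1 encodes the main phosphatidic acid phosphatase of muscle, which also acts in the nucleus as a transcriptional coactivator. Its log2 signal at the probe on chr12:16543695-16543754 (mm9, the build of the array files) was 4.28, 4.28, 3.96, 4.07 and 4.26 in CTR-NCD and 3.38, 3.56, 3.31, 3.58 and 3.63 in AR113Q-NCD. In CTR-HFD it was 4.17, 4.38, 3.91 and 4.40, and in AR113Q-HFD 3.38, 3.62, 3.40, 3.42 and 3.49. Every AR113Q array thus lay below every CTR array. The log2 fold change was -0.68 on NCD (SE 0.10, adjusted p = 0.000159) and -0.75 on HFD (SE 0.11, adjusted p = 0.000104), and at the other Lpin1 probe -1.09 (SE 0.14, adjusted p = 6.12e-05) and -0.96 (SE 0.15, adjusted p = 0.000306). The exact 2-sided permutation test gave 0.00794 on each diet, the smallest p that 5 against 5 and 5 against 4 arrays allow.

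Lpin3, the family member that is normally most prominent outside muscle, moved the other way. At chr2:160731469-160731528 (mm9) its log2 signal was -0.27, -0.80, -0.37, -0.42 and -0.47 in CTR-NCD and 0.55, 0.46, 0.12, 0.14 and 0.49 in AR113Q-NCD. The CTR-HFD arrays read -0.51, -0.58, -0.40 and -0.54 and the AR113Q-HFD arrays 0.90, 0.58, 0.73, 0.16 and 1.09. All 9 CTR arrays were below 0 and all 10 AR113Q arrays above it. The log2 fold change was 0.82 on NCD (SE 0.15, adjusted p = 0.000904) and 1.20 on HFD (SE 0.16, adjusted p = 5.26e-05). Within single slides, which carry up to 4 arrays of different groups, the difference between the genotypes was -0.89 to -0.49 for Lpin1 and 0.49 to 1.26 for Lpin3 on the 5 slides of the NCD comparison, and -0.91 to -0.51 and 1.13 to 1.63 on the 4 slides that held both HFD groups. Lpin1 and Lpin3 were called on both diets under each of the 33 alternatives tried, Lpin1 at 1 of its 2 probes with the normexp background correction (adjusted p = 0.149 on NCD and 0.0682 on HFD at the probe shown).

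The other phosphatases showed little difference. Lpin2 and the lipid phosphate phosphatases Ppap2a, Ppap2b and Ppap2c, which sit in membranes and act on several phospholipids, had log2 fold changes from -0.23 to 0.08 on NCD and from -0.14 to 0.13 on HFD over 6 probes, none of them called.

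Of the acyltransferases that make phosphatidic acid, Agpat1 was lower and Agpat2 and Agpat3 were higher in AR113Q-NCD. All of these enzymes add the second acyl chain to lysophosphatidic acid, and Agpat2 is the form that predominates in fat tissue. Agpat1 (chr17:34750307-34750366, mm9) read 0.97, 0.91, 0.84, 0.76 and 1.12 in CTR-NCD and 0.54, 0.71, 0.35, 0.43 and 0.32 in AR113Q-NCD. On HFD it read 0.88, 1.06, 0.96 and 0.82 in CTR and 0.51, 0.76, 0.61, 0.30 and 0.52 in AR113Q arrays. The groups did not overlap on either diet, with log2 fold changes of -0.45 (SE 0.09, adjusted p = 0.00282) and -0.39 (SE 0.10, adjusted p = 0.0112). With arrays centred on the median in place of the 75th percentile, the adjusted p rose to 0.111 and 0.23.

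For Agpat2 (chr2:26448610-26448669, mm9) the CTR-NCD arrays read 1.88, 2.08, 1.98, 2.26 and 1.90 and the AR113Q-NCD arrays 2.93, 4.09, 3.18, 2.97 and 3.25. On HFD the values were 1.77, 1.82, 2.79 and 1.999 in CTR and 2.88, 2.52, 2.69, 2.34 and 3.15 in AR113Q. On NCD the groups were apart, and AR113Q-NCD replicate 2 was the highest array, while on HFD CTR replicate 3 lay among the AR113Q arrays. The difference was 2.4-fold on NCD (log2 1.26, SE 0.23, adjusted p = 0.000818) and 1.54-fold on HFD (log2 0.62, 95% confidence interval 0.12 to 1.13, adjusted p = 0.0854), and a second probe gave 1.16 (SE 0.23, adjusted p = 0.002) and 0.64 (SE 0.25, adjusted p = 0.0863). Leaving out CTR-HFD replicate 3 gave 0.85 on HFD with an adjusted p of 0.0129.

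Agpat3 (chr10:77736356-77736415, mm9) was the acyltransferase called higher on both diets. It read 3.46, 3.53, 3.44, 3.22 and 3.31 in CTR-NCD against 4.03, 4.08, 3.95, 3.85 and 4.09 in AR113Q-NCD, and 3.61, 3.42, 4.13 and 3.38 in CTR-HFD against 4.30, 4.06, 3.997, 4.001 and 4.60 in AR113Q-HFD. Only CTR-HFD replicate 3 reached the AR113Q range. The log2 fold changes were 0.61 (SE 0.14, adjusted p = 0.00514) and 0.55 (SE 0.15, adjusted p = 0.0131), and the adjusted p on HFD was 0.0509 without CTR-HFD replicate 2 and 0.0542 without replicate 4.

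Among the members, the enzymes of the first acylation step, Gpam of the mitochondrial membrane and Agpat6 of the endoplasmic reticulum, were not called. Agpat9 and Gpat2 of the same step were not members and are counted with the further genes below. There Agpat9 was called higher on NCD, with means of 1.065 in CTR-NCD and 1.488 in AR113Q-NCD, and Gpat2 was not called. Gpam differed by -0.19 (SE 0.08, adjusted p = 0.108) and -0.24 (SE 0.09, adjusted p = 0.0749) at its 2 probes on NCD, and Agpat6 by -0.14 (SE 0.06, adjusted p = 0.152), although the Agpat6 groups did not overlap. Agpat4 and the acylglycerol kinase Agk had log2 fold changes of 0.10 and 0.16 on NCD.

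Glycerol kinase, encoded by Gyk, recycles free glycerol to glycerol phosphate and is normally sparse in muscle and white fat. Its probe (chrX:82956390-82956449, mm9) was well above background on 18 of 19 arrays and read -4.67, -5.36, -5.34, -4.92 and -5.38 in CTR-NCD against -4.59, -3.73, -4.13, -4.40 and -4.43 in AR113Q-NCD. On HFD the values were -5.36, -5.12, -4.19 and -6.03 in CTR and -4.61, -5.11, -4.77, -4.63 and -4.05 in AR113Q. The NCD groups were just apart and the HFD groups overlapped, because CTR-HFD replicate 3 lay near the top of the AR113Q range. The log2 fold change was 0.88 on NCD (SE 0.28, adjusted p = 0.0384) and 0.54 on HFD (95% confidence interval -0.09 to 1.17, adjusted p = 0.251). With the replicate number as a block, which pairs the NCD arrays of a slide, the NCD value was 0.88 with an adjusted p of 0.0563, and it was also lost without any 1 of replicates 2, 3, 4 and 5 of CTR-NCD or of AR113Q-NCD (adjusted p between 0.0504 and 0.102). Without CTR-HFD replicate 3 the HFD value was 0.87 (adjusted p = 0.0264). Glycerate kinase, Glyctk, had log2 fold changes of 0.09 and 0.10 on NCD and was not called.

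At the last step of triglyceride synthesis, Dgat2 was higher and Dgat1 showed little difference. These are unrelated proteins that add the third acyl chain to diacylglycerol. Dgat2 (chr7:106302215-106302274, mm9) read 3.90, 3.92, 4.08, 3.72 and 3.28 in CTR-NCD and 4.26, 4.93, 4.89, 4.49 and 4.77 in AR113Q-NCD. On HFD it read 3.54, 3.93, 5.08 and 4.13 in CTR and 4.13, 3.82, 3.67, 3.81 and 4.47 in AR113Q. All AR113Q-NCD arrays were above all CTR-NCD arrays, whereas the HFD groups overlapped fully and CTR-HFD replicate 3 was the highest of the 19. The difference was 1.85-fold on NCD (log2 0.89, SE 0.24, adjusted p = 0.0166) and the log2 fold change on HFD was -0.19 (95% confidence interval -0.73 to 0.36, adjusted p = 0.696). The interaction was -1.08 on the log2 scale (SE 0.35, unadjusted p = 0.00745, adjusted p = 0.914). The NCD call was lost without CTR-NCD replicate 5 (adjusted p = 0.0505), and without CTR-HFD replicate 3 the HFD value was 0.12. Dgat1 differed by 0.09 on each diet (adjusted p = 0.556 and 0.564), and the monoacylglycerol acyltransferase Mogat1 by -0.10 and -0.15.

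**Figure D2:**
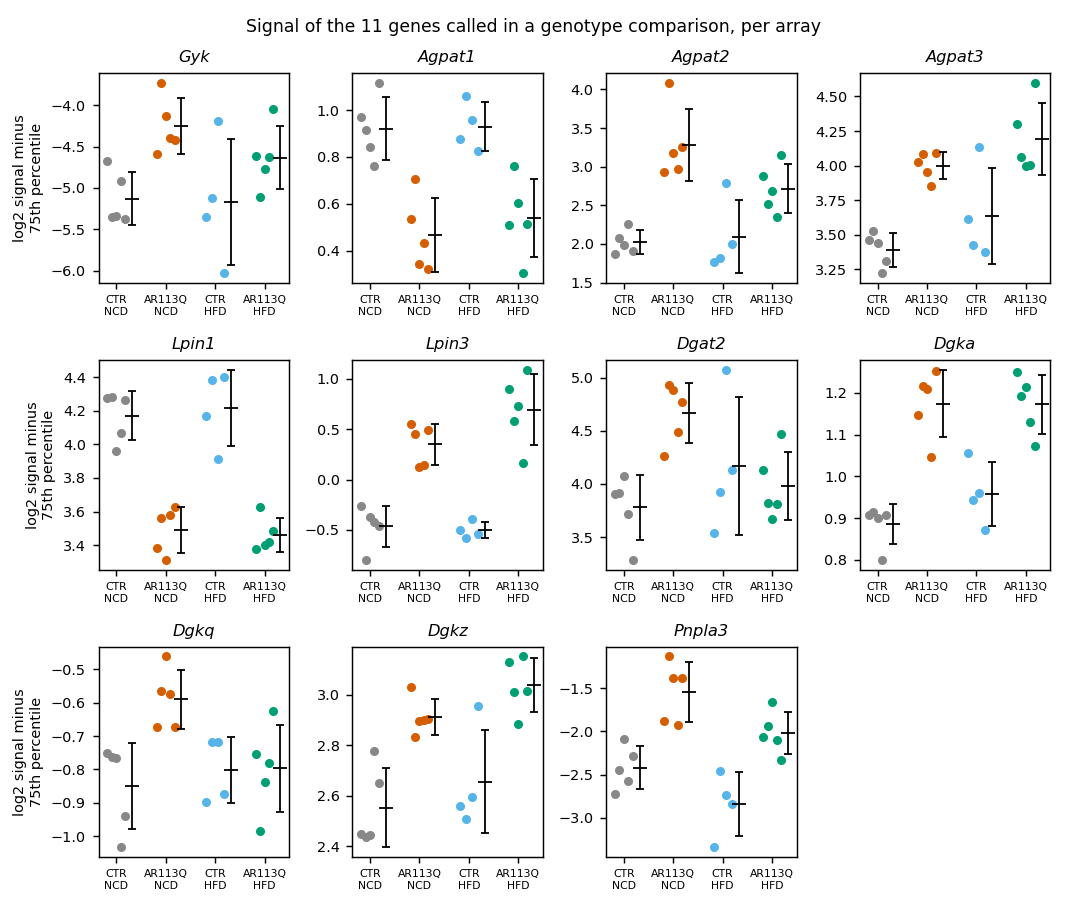
Each point is the log2 signal of 1 array, minus that array's 75th percentile, for the 11 members called in a genotype comparison, with the mean and SD of each group beside the points and a separate scale for each gene. In Lpin1 and Lpin3 the CTR and AR113Q arrays do not overlap on either diet, and in Agpat2, Agpat3, Dgat2 and Gyk 1 CTR-HFD array stands above the others of its group.

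Among the diacylglycerol kinases, which turn diacylglycerol back into phosphatidic acid, Dgka and Dgkz were higher on both diets and Dgkq on NCD. The differences were small. Dgka, a calcium-dependent form (chr10:128157256-128157315, mm9), read 0.91, 0.92, 0.90, 0.80 and 0.91 in CTR-NCD against 1.15, 1.22, 1.21, 1.05 and 1.25 in AR113Q-NCD, and 1.06, 0.94, 0.96 and 0.87 in CTR-HFD against 1.25, 1.19, 1.21, 1.13 and 1.07 in AR113Q-HFD. No AR113Q array fell among the CTR arrays of its diet. The log2 fold changes were 0.29 (SE 0.06, adjusted p = 0.00163) and 0.21 (SE 0.06, adjusted p = 0.018), and without CTR-HFD replicate 4 the second was 0.19 (adjusted p = 0.0647).

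The zeta form Dgkz (chr2:91773047-91773106, mm9) read 2.45, 2.44, 2.44, 2.78 and 2.65 in CTR-NCD against 3.03, 2.83, 2.89, 2.90 and 2.90 in AR113Q-NCD. On HFD it read 2.56, 2.51, 2.60 and 2.96 in CTR and 3.13, 3.01, 2.88, 3.15 and 3.02 in AR113Q, so that CTR-HFD replicate 4 alone entered the AR113Q range. The log2 fold changes were 0.36 (SE 0.09, adjusted p = 0.0107) and 0.38 (SE 0.10, adjusted p = 0.0101). Dgkq, the theta form (chr5:109076092-109076151, mm9), read -0.75, -0.76, -0.77, -1.03 and -0.94 in CTR-NCD and -0.67, -0.57, -0.46, -0.57 and -0.67 in AR113Q-NCD, and -0.90, -0.72, -0.72 and -0.88 in CTR-HFD and -0.76, -0.98, -0.84, -0.78 and -0.62 in AR113Q-HFD. It was 0.26 higher on NCD (SE 0.08, adjusted p = 0.0275) and differed by 0.01 on HFD (95% confidence interval -0.17 to 0.18, adjusted p = 0.977). The NCD call was lost without CTR-NCD replicate 4 or 5 (adjusted p = 0.0791 and 0.0688) or AR113Q-NCD replicate 2 or 3 (0.0562 and 0.0782). With median centring the adjusted p was 0.0726 for Dgka, 0.126 for Dgkq and 0.0562 for Dgkz on NCD, and 0.187 for Dgka and 0.0523 for Dgkz on HFD. The other 6 kinases (Dgkb, Dgkd, Dgke, Dgkg, Dgkh and Dgki) ranged from -0.19 to 0.20 on NCD and were not called.

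All 10 tested lipase probes had a log2 fold change above 0 on NCD, with a median of 0.46, beside 42.6% of all probes above 0. Lipg, 1 of the 10, passed the filter on dim probes through 4 of 5 AR113Q-NCD arrays, so the filter favoured its value above 0. On HFD 3 of the 10 were above 0, with a median of -0.18, beside 40.9% of all probes. That count and median include Lipg, which was well above background on 0 of 4 CTR-HFD and 0 of 5 AR113Q-HFD arrays. The probes of 9 white adipocyte marker genes moved in the same way as the lipase probes without a call, 9 of 11 being above 0 on NCD (median 0.28) and 3 of 11 on HFD (median -0.14), and their part in the lipase values was not tested. Of the 5 genes read by the lipase probes, Pnpla3 passed the test. Pnpla3, or adiponutrin, is a lipid droplet protein best known from liver and fat. At chr15:84016440-84016499 (mm9) it read -2.72, -2.44, -2.08, -2.57 and -2.29 in CTR-NCD and -1.87, -1.13, -1.38, -1.93 and -1.38 in AR113Q-NCD. On HFD it read -3.34, -2.45, -2.73 and -2.84 in CTR and -2.06, -1.93, -1.66, -2.10 and -2.33 in AR113Q. The genotypes did not overlap on either diet. The log2 fold change was 0.88 on NCD (SE 0.18, adjusted p = 0.00304) and 0.82 on HFD (SE 0.20, adjusted p = 0.00696), and at the second probe 1.74 (SE 0.33, adjusted p = 0.0013) and 0.97 (SE 0.35, adjusted p = 0.0648). With normexp background correction the value at the first probe was 0.046 on NCD (adjusted p = 0.903) and 0.54 on HFD (adjusted p = 0.724). The median of all probes under that correction was -0.55 on NCD and -0.02 on HFD.

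Adipose triglyceride lipase, Pnpla2, which starts the breakdown of triglyceride in droplets, differed by 0.27 on NCD (95% confidence interval -0.03 to 0.58, adjusted p = 0.232) and by 0.00 on HFD (-0.32 to 0.33, adjusted p = 0.996). Monoglyceride lipase, Mgll, which completes it, had 4 probes, none of them called. The 1 with a log2 fold change of 0.37 on NCD (SE 0.43) and -0.25 on HFD (SE 0.45) was well above background on 10 of 19 arrays. This dim probe is among the 10 lipase probes counted above. The other Mgll probes, well above background on all 19 arrays, gave 0.17 to 0.22 on NCD and -0.27 to -0.12 on HFD. Lipoprotein lipase, Lpl, made by the fiber and used at the capillary wall, read 4.52 to 5.64 in CTR-NCD and 5.50 to 5.85 in AR113Q-NCD at the probe on chr8:71430267-71430326 (mm9), a log2 fold change of 0.55 (SE 0.27, adjusted p = 0.187), and on HFD its 2 probes differed by -0.20 and -0.15 (adjusted p = 0.702 and 0.826). The endothelial lipase Lipg was well above background on 5 of 19 arrays, namely AR113Q-NCD replicates 1, 2, 3 and 4 and CTR-NCD replicate 4, and its difference on NCD was 1.55 (SE 0.64, adjusted p = 0.116). As 0 of 9 HFD arrays told it from background, no difference is given for HFD.

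Between the diets, 0 of 32 members were called in either genotype or for the interaction with limma. Over all genes the comparison of AR113Q-HFD with AR113Q-NCD called 0.0283%, and that of CTR-HFD with CTR-NCD and the interaction called 0%. At an unadjusted p under 0.05, 10 of 43 member probes differed between AR113Q-HFD and AR113Q-NCD (6.73% of all probes did), 1 between CTR-HFD and CTR-NCD (8.67%) and 4 for the interaction (4.65%). These comparisons share their arrays with the genotype comparisons.

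In AR113Q mice the 10 probes were those of Dgat2, Dgat1, Agpat2, Lpl, Lipg, Pnpla3, Dgkq and Lpin3. The first 7 of these genes were lower on HFD, and Lpin3 was higher. Dgat2 averaged 4.67 ± 0.28 (SD, n = 5) in AR113Q mice on NCD and 3.98 ± 0.32 (SD, n = 5) in those on HFD, a log2 fold change of -0.69 (SE 0.24, unadjusted p = 0.0116, adjusted p = 0.577 from the limma fit). At its probes Agpat2 differed by -0.57 and -0.67, and Lpl by -0.68 and -0.69, Lpl reading 5.12, 4.71, 4.58, 4.84 and 5.54 in AR113Q-HFD at the probe given above. Pnpla3 differed by -0.48, Dgkq by -0.21, Dgat1 by -0.19 and Lpin3 by 0.34, each at 1 probe. The second Pnpla3 probe differed by -0.25 (SE 0.33). Lipg could be told from background on 4 of 5 arrays of AR113Q-NCD but on 0 of 5 arrays of AR113Q-HFD, which makes its difference a bound, at least 1.33-fold higher in AR113Q-NCD (measured means -6.38 and -8.34, adjusted p = 0.533). Its probe passed the filter on dim probes through those AR113Q-NCD arrays, so its place among the 10 probes was favoured by the filter. The bound sets the dim arrays at the lowest signal among probes well above background.

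In CTR mice none of the same genes was called between diets. Dgat1 differed by -0.19, as it did in AR113Q mice, Dgkq by 0.05 and Lpin3 by -0.04. Dgat2 differed by 0.39 (95% confidence interval -0.15 to 0.93), Lpl by 0.07 and 0.10 and Agpat2 by 0.07 and -0.15. The 1 probe at an unadjusted p under 0.05 was the first Pnpla3 probe (-0.42, SE 0.20, adjusted p = 0.568). The second Pnpla3 probe went the other way (0.51, SE 0.35). All 10 lipase probes were below 0 in AR113Q mice on HFD against NCD, and 8 of 10 were above 0 in CTR mice, where 49.3% and 52.2% of all probes were above 0. Both counts include Lipg, whose sign in AR113Q mice was favoured by the filter on dim probes. It passed that filter through AR113Q-NCD arrays (4 of 5 well above background, against 1 of 5 CTR-NCD, 0 of 4 CTR-HFD and 0 of 5 AR113Q-HFD arrays). Markers of other fiber and cell types moved with the lipase probes in AR113Q mice. All 9 probes of 7 slow fiber genes were below 0 in AR113Q mice (median -2.59) and also in CTR mice (median -1.57). All 7 endothelial marker probes were below 0 in AR113Q mice (median -0.36, 5 of them at an unadjusted p under 0.05) and also in CTR mice (median -0.07, 3 of them), and the mean of the 6 genes was 0.12 to 0.60 in AR113Q-NCD and -0.14 to 0.09 in AR113Q-HFD arrays. Of the white adipocyte probes 10 of 11 were below 0 in AR113Q mice (median -0.47) and 6 of 11 in CTR mice (median -0.07). The remaining lists also had most probes below 0 in AR113Q mice. These were Schwann cell 8 of 9, macrophage 9 of 12, hepatocyte 5 of 5, brown adipocyte 4 of 5 and skeletal muscle 6 of 7. In CTR mice the same lists had 5, 10, 4, 3 and 2 probes below 0, in that order. None of these markers was called between the diets, and their part in the lipase values was not tested. The interaction at an unadjusted p under 0.05 held Dgat2, Dgkq (-0.26, SE 0.11) and 2 Mgll probes (-0.43, SE 0.19, and -0.49, SE 0.20), each with an adjusted p between 0.914 and 1.

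**Figure D3:**
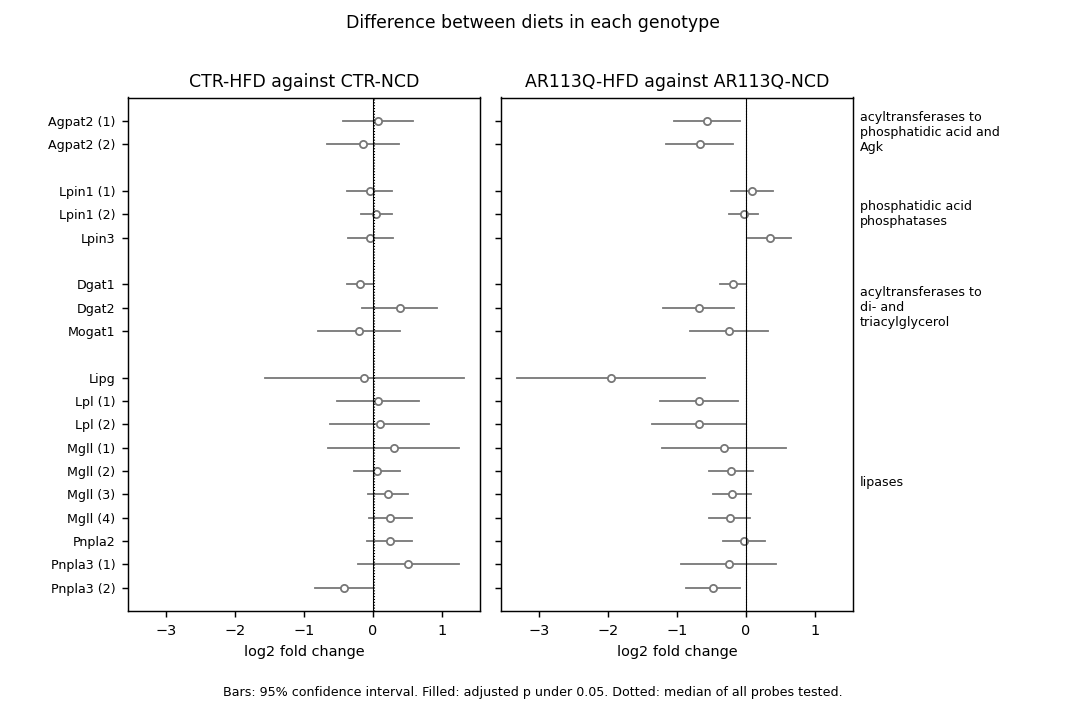
The log2 fold change of HFD against NCD is plotted in CTR (left) and AR113Q (right) mice for the probes of the lipases, of the diacylglycerol and monoacylglycerol acyltransferases and of Agpat2, Lpin1 and Lpin3, with bars for 95% confidence intervals and open points because none passed an adjusted p of 0.05. The lipase points of AR113Q mice all lie below 0 and those of CTR mice mostly above it, with wide and overlapping intervals. They include Lipg, whose probe passed the filter on dim probes through AR113Q-NCD arrays.

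Markers of other fiber and cell types moved with some of these values. The mean log2 signal of 7 slow fiber genes (Myh7, Tnni1, Tnnc1, Tnnt1, Myl2, Myl3 and Atp2a2) was -0.11 to 4.26 in CTR and 4.05 to 5.24 in AR113Q arrays on NCD, and on HFD it was -1.86 to 4.48 in CTR and -0.46 to 3.81 in AR113Q arrays. The log2 of their summed signal was 3.53 to 8.31, 8.02 to 9.07, 1.9 to 8.55 and 2.75 to 7.66 in the same order, all 7 were detected in each group, and 0 of 7 were called in a comparison with limma. The highest CTR-HFD value was that of replicate 3, the array on which Agpat2, Agpat3, Dgat2 and Gyk were highest in their group. The part of fiber type in these differences was not tested.

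The brown adipocyte markers Ucp1, Cidea, Elovl3, Cox8b and Zic1 averaged 2.10 in AR113Q-NCD replicate 2 and between -2.60 and -0.35 in the other 18 arrays. Ucp1 read 3.85 on that array and Elovl3 was detected on it alone among the AR113Q-NCD arrays, and Agpat2, Gyk, Dgat2 and Pnpla3 were each at their AR113Q-NCD maximum there. Over the groups the log2 of the summed signal of the 5 genes, of which Cox8b is also a muscle gene, was 7.64 to 8.24. Elovl3 was not detected in the other 3 groups and Ucp1 not in CTR-HFD, and Cox8b was called lower in AR113Q-HFD (-0.32, SE 0.08, adjusted p = 0.00824). All 9 white adipocyte markers were detected in each group, their mean ranged on NCD from 0.66 to 2.56 in CTR and 1.15 to 2.27 in AR113Q arrays and on HFD from 0.49 to 2.21 and 0.26 to 2.37, and 0 of 9 were called. Of 6 endothelial, 6 Schwann cell, 6 macrophage and 4 hepatocyte markers, Kdr, an endothelial growth factor receptor, was called lower in AR113Q-HFD than in CTR-HFD at 1 of its 2 probes (-0.68, SE 0.205, adjusted p = 0.0275, with limma), and none of these markers was called in the other comparisons. Its part in the results for the lipid genes was not tested. With AR113Q-NCD replicate 2 and CTR-HFD replicate 3 both left out, a choice made after seeing the data, 8 members were higher on NCD (the same 9 without Dgkq, adjusted p = 0.0561) and 2 lower, and on HFD 7 were higher (the same 5 with Agpat2 and Gyk) and 3 lower (with Agpat6).

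**Figure D4:**
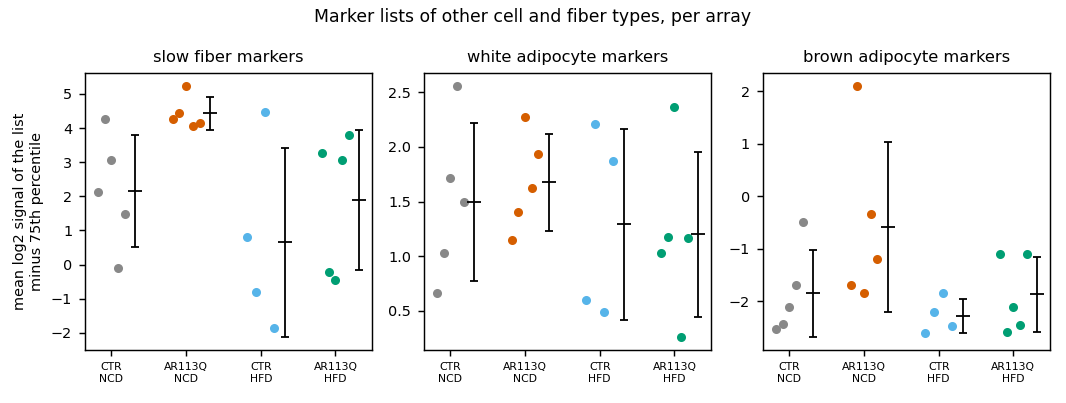
Each point is the mean log2 signal of a marker list on 1 array, minus that array's 75th percentile, with the mean and SD of each group beside the points. The slow fiber mean of CTR-HFD replicate 3 (4.48) and the brown adipocyte mean of AR113Q-NCD replicate 2 (2.10) stand apart from the rest of their groups.

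Of 51 further genes of the pathway, 50 were on the array and tested, with 69 probes. On NCD 10 were higher and 9 lower in AR113Q mice, or 30.4% of their probes called beside 17.6% of all probes. On HFD 3 were higher and 8 lower, and the 18.8% of their probes called was close to the 17.9% of all probes. G0s2, an inhibitor of adipose triglyceride lipase, was higher on NCD (1.09, SE 0.18, adjusted p = 0.000557), as was Plin2, which coats lipid droplets (0.62, SE 0.18, adjusted p = 0.0206). Gpd1, which makes glycerol phosphate from a glycolytic intermediate, was lower on both diets (-0.55, SE 0.14, adjusted p = 0.0122, and -0.65, SE 0.15, adjusted p = 0.00589). Dagla and Daglb, the diacylglycerol lipases, were also lower on both, Dagla by -1.10 (SE 0.21, adjusted p = 0.00144) and -1.02 (SE 0.22, adjusted p = 0.00381). The Dagla signal was near background, its probe being well above it on 18 of 19 arrays and on 4 of 5 in AR113Q-NCD. Among genes of phospholipid synthesis, Cds2, Chkb and Pisd were higher and Pemt, Pcyt1a and Ptpmt1 lower on both diets, Pemt, which methylates phosphatidylethanolamine to phosphatidylcholine, at all 3 of its probes (-0.58 to -0.52 on NCD). The others higher on NCD were Lmf1, Agpat9, Chka, Etnk1 and Lpgat1, the others lower were Cideb, Fitm1 and Pnpla8, and Pnpla8 and Pcyt2 were lower on HFD. Lmf1 went the other way at its second probe, with means of -1.369 in CTR-NCD and -1.635 in AR113Q-NCD, against 2.529 and 2.792 at the called probe. None of the 50 was called between diets or for the interaction, where 10, 6 and 6 of 69 probes reached an unadjusted p under 0.05 in AR113Q mice, CTR mice and the interaction, beside 6.73%, 8.67% and 4.65% of all probes.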

How the data were processed

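The authors hybridised quadriceps RNA to one-colour 4-array slides and read spot intensities with Agilent Feature Extraction 10.7.3.1, per the labels; the deposited intensity values are background-subtracted and not normalized between arrays. The authors also deposited a log2 table of 25944 probe rows, used here as an alternative, whose scale and normalization are not given in the sources used here (array medians 7.59 to 7.65). Groups were taken from the labels.

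Outlier and control spots were left out, intensities log2-transformed, spots of a probe averaged and each array's 75th percentile subtracted. Probes well above background on at least 4 arrays were tested with limma 3.58.1 in R 4.3.3 over the 4 groups, with Benjamini-Hochberg adjustment, and the method was tested on simulated data. Single probes also had exact permutation tests. The number of arrays limits the precision. Same-numbered CTR-NCD and AR113Q-NCD arrays shared a slide, and their deviations from the group means correlated at 0.236 to 0.448 in all 5 pairs, so the numbers pair these arrays; on HFD the correlations ranged from -0.205 to 0.434. No 2 arrays were duplicates (highest correlation 0.993). Members, lists and tests were chosen with earlier results of these data known. Shown by sample are the members called in a comparison, at the called probe with the highest mean signal. Alternatives covered normalization, background, filter, slide and replicate blocks, array weights, variance model, fold thresholds, the groups fitted and each array left out.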

Additional observations from a re-analysis of the deposited data

Results flagged for a closer look

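Over the 11 genes shown by sample in 4 groups, 44 sets of values were checked for a sample far from the rest of its group, and chance alone marks about 1 in 20 such sets. Agpat2 was marked in AR113Q-NCD replicate 2, at 4.09 against 3.25 for the next array and 2.93 for the lowest of its group, which is also the array with the brown adipocyte markers apart. Without this array Agpat2 remained called on NCD. Dgka was marked in CTR-NCD replicate 4, at 0.80 against 0.90 for the next array and 0.92 for the highest.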

How the results depend on the processing

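The number of arrays limits what can be seen. Signal near background limits Gyk, Lipg, 1 Mgll and 1 Lpin2 probe among the members, and Dagla among the further genes. Of 33 alternatives, leaving out each array in turn gave 7 to 9 members higher and 2 to 3 lower on NCD, and 3 to 7 higher and 2 to 3 lower on HFD, the lowest HFD count (3, without Agpat3 and Dgka) coming without CTR-HFD replicate 4. Counts of members between diets and for the interaction were 0 under every alternative.

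Apart from single arrays left out, counts moved by over 1.5 times under 4 settings. Normexp background correction gave 4 higher and 1 lower on NCD and 1 higher and 1 lower on HFD. It also shifted the median of all probes on NCD by -0.50, to -0.55, so that relative to that median Lpin1 (-0.36) and Agpat1 (-0.27) at their shown probes turned. Median centring gave 6 higher (without Dgka, Dgkq and Dgkz) and 1 lower on NCD, and 3 higher and 1 lower on HFD. Fold thresholds of 1.5 and 0.6 gave 6 higher and 1 lower on NCD, and 2 higher and 1 lower on HFD. Fitting the groups of the comparison alone gave 2 higher on HFD. The other settings gave 8 to 11 higher on NCD, the most with array weights, which added Agk and Lipg, and 5 to 7 higher on HFD, with 2 to 3 lower on each diet. Directions turned for Gyk on NCD under normexp (-0.81), for Dgat2 on HFD without CTR-HFD replicate 3, alone or with AR113Q-NCD replicate 2 (0.115; -0.396 to 0.115 with single arrays left out), and for Dgkq on HFD with the authors' values (-0.013) and without single HFD arrays (-0.038 to 0.052); the cause was not tested. With the replicate number as a block, 9 members were higher and 2 lower on NCD, with Agk in place of Gyk, and 5 higher and 3 lower on HFD, with Agpat6 added; it changed no other call.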
